A study of Homo sapiens with 21 samples.

Results

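The 10 genes described here encode transcription factors of the nuclear factor kappa B (NF-kappa-B) family and the feedback genes that this family is known to switch on. They were chosen by symbol, before any filter on level: NFKB1, NFKB2, RELA, RELB, NFKBIA, NFKBIE, NFKBIZ, TNFAIP3, TNIP1 and BIRC3. All 10 were found in each deposited table, among 17756 genes in the chromosome 3 mRNA table, 19854 in the footprint table and 20036 in the chromosome 8 mRNA table. All 10 passed the filters on low values in every table. NFKBIZ is the only one of them on an arm altered in the study, 3q.

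The study measured a human lung epithelial cell line and isogenic cells that had lost or gained a chromosome arm, with 3 biological replicates in each of 7 groups. Poly(A) mRNA was sequenced from cells with a loss of the short arm of chromosome 3 (3p loss), cells with a gain of its long arm (3q gain) and unaltered chromosome 3 cells (Chr3 WT). Ribosome-protected fragments (RPF, or footprints, the pieces of mRNA left after nuclease digestion because a ribosome covered them) were sequenced from 3p loss cells and from WT cells labelled 3p WT, after 5 min in cycloheximide, which stalls ribosomes. Poly(A) mRNA was also sequenced, on another sequencer, from cells that had lost the short arm of chromosome 8 (8p loss) and from their 8p WT controls. No treatment with a cytokine was given in the labels, which also do not say whether a group is 1 clone, so what sets a group apart from its WT may include the history of a clone. The mRNA levels are in TPM (transcript abundance scaled for gene length and library size), footprint levels are in CPM (counts scaled to library size alone), and n = 3 libraries per group throughout.

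The altered arms stood as labelled. The median log2 change was -0.89 over 321 genes of 3p in 3p loss mRNA and -1.01 over 324 genes of 3p in its footprints. It was 0.51 over 324 genes of 3q in 3q gain mRNA and -0.83 over 146 genes of 8p in 8p loss mRNA. Footprint libraries held 4622326 to 13607875 counts, and the depth behind the TPM values is unknown. Basal epithelial markers were high: KRT5, a basal keratin gene, ran from 3380 to 14200 TPM in the chromosome 3 libraries. NKX2-1, a factor of the lung lineage, was listed at 0 in all 9 of those libraries. Footprint replicates 1 and 2 of each genotype were closer to each other than to replicate 3. They still differed beyond counting noise, with a chi-square per degree of freedom of 1.34 in WT and 1.38 in 3p loss, and were kept as separate libraries.

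NF-kappa-B factors are dimers of Rel family proteins that bind a short DNA motif called kappa-B. In resting cells, inhibitor of kappa-B (I-kappa-B) proteins hold them in the cytoplasm. When receptors for TNF, interleukin 1 or microbial products are engaged, the I-kappa-B kinase (IKK) complex marks the inhibitor for destruction and the dimers enter the nucleus. Among the genes they then transcribe are their own inhibitors and the ubiquitin-editing proteins that shut the signal off. RNA levels of these genes are therefore often read as a gauge of pathway output, although no activity was measured here. In airway epithelium the pathway is known for driving cytokine and chemokine genes.

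By role, RELA and RELB encode Rel factors with a transactivation domain. NFKB1 and NFKB2 encode precursors that are processed to the p50 and p52 subunits. NFKBIA and NFKBIE encode the cytoplasmic inhibitors I-kappa-B alpha and I-kappa-B epsilon, and NFKBIZ encodes I-kappa-B zeta, a nuclear cofactor that helps transcribe a secondary set of targets. TNFAIP3 encodes A20, a ubiquitin-editing enzyme that dampens IKK activation, and TNIP1 encodes a ubiquitin-binding partner of A20. BIRC3 encodes cIAP2, a ubiquitin ligase of TNF receptor complexes. On GRCh38 (RefSeq), the Rel factor genes lie on chromosome 4 (NFKB1, 102501359 to 102617302), chromosome 10 (NFKB2, 102394110 to 102402529), chromosome 11 (RELA, 65653601 to 65663857) and chromosome 19 (RELB, 45001464 to 45038192). The inhibitor genes lie on chromosome 14 (NFKBIA, 35401513 to 35404749), chromosome 6 (NFKBIE, 44258166 to 44265551) and chromosome 3 (NFKBIZ, 101827990 to 101861022). TNFAIP3 lies on chromosome 6 (137866349 to 137883312), TNIP1 on chromosome 5 (151029943 to 151087685) and BIRC3 on chromosome 11 (102317484 to 102339403).

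Promoter sequence is shown first because several of these genes are textbook NF-kappa-B targets. A kappa-B motif, GGGNNNTTCC on either strand (GGAANNNCCC on the other), was searched in the 250 bases before each RefSeq transcription start. Of the 10 genes, 8 had a promoter in the RefSeq table, and 7 of the 8 held the motif: NFKB1, NFKB2, NFKBIA, NFKBIZ, TNFAIP3, TNIP1 and BIRC3, but not RELA. A gene was counted if at least 1 of its starts had a match. No match lay before NFKB1 start 2, NFKB2 start 1, NFKBIZ start 2 or TNIP1 start 1. For comparison, 6.87% of 27305 genes held it, and 5.67% of 35097 starts. The genes were picked from this pathway, and a match of letters is a description, not evidence of binding. The whole 250 bases are shown for NFKBIA and TNFAIP3, on which the results below turn most, 5′ to 3′ on the gene's strand and lower case, with the matches in capitals. The NFKBIA stretch is chr14:35404750-35404999 on the minus strand and the TNFAIP3 stretch is chr6:137867009-137867258 on the plus strand.
NFKBIA: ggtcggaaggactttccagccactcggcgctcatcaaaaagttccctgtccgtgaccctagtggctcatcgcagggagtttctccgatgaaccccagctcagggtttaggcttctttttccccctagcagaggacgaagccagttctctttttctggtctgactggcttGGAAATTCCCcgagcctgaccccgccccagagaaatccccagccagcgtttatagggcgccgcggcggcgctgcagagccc
TNFAIP3: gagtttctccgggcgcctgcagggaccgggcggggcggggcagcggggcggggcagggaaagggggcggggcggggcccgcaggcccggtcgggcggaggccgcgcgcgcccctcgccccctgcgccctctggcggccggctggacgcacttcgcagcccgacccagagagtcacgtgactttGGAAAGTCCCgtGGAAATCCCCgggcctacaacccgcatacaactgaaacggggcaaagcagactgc

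The match began 81 bases before the start in NFKBIA, and 2 matches began 67 and 55 bases before the start in TNFAIP3, separated by 2 bases. For the other genes the stretch around the match is shown, in the same form, so that the matched letters can be compared. These are chr4:102501290-102501339 (NFKB1, plus strand), chr10:102394452-102394529 and chr10:102395664-102395704 (NFKB2, plus strand, before its RefSeq starts numbered 2 and 3), chr3:101827747-101827796 (NFKBIZ, plus strand), chr5:151081047-151081096 (TNIP1, minus strand) and chr11:102317265-102317314 (BIRC3, plus strand). The NFKB1 and NFKBIZ stretches lie before start 1 of those genes, and the TNIP1 stretch before its start 2. The starts of TNFAIP3, TNIP1 and NFKB2 used here lie inside the gene spans given above.
NFKB1: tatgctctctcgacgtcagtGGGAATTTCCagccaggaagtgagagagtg
NFKB2, start 2: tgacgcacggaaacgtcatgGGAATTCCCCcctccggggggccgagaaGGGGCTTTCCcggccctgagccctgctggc
NFKB2, start 3: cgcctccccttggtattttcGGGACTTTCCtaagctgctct
NFKBIZ: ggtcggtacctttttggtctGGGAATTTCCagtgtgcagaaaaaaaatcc
TNIP1: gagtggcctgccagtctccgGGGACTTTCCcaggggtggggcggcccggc
BIRC3: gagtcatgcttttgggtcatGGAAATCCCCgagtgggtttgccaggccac
NFKB1 and NFKBIZ carried the same 10 letters, as did TNIP1 and NFKB2 at its start 3. The BIRC3 match and the second match of TNFAIP3 were also identical to each other.

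In Chr3 WT cells the mRNA levels of the 10 genes spanned from 7.64 TPM for BIRC3 to 194 TPM for TNIP1. TNIP1 (194 ± 31.7 TPM, SD) and NFKBIA (171 ± 51.7) were the highest, and their libraries overlapped. TNFAIP3 followed at 83.4 ± 36.3 and RELA at 52.4 ± 4.33 TPM, again with libraries that overlapped. NFKB2 (33.1 ± 11.2), NFKB1 (28.7 ± 3.5), NFKBIZ (28 ± 13) and RELB (24.1 ± 2.31) made up a middle group whose libraries overlapped between neighbours. NFKBIE (10.1 ± 1.55) and BIRC3 (7.64 ± 3.94) were lowest and overlapped as well. The WT libraries were not alike for the feedback genes. WT replicate 3 was the lowest of the WT libraries for 6 of the 10 genes, BIRC3, NFKBIA, NFKBIE, NFKBIZ, TNFAIP3 and TNIP1. Such a count is not particular to this group: replicate 1 was lowest for 7 of the 10 in 3p loss mRNA, and likewise in the footprints of WT and of 3p loss.

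The comparison of 3p loss with Chr3 WT mRNA asked how the pathway stood in cells lacking 1 short arm of chromosome 3. Of the 10 genes, 5 fell and none rose (limma, Benjamini-Hochberg adjusted p under 0.05 over all genes), where 8.80% of the 11225 genes tested fell and 6.17% rose. The genes that fell were TNFAIP3, NFKBIZ, RELB, TNIP1 and NFKB1. In 7 of the 10, all 3p loss libraries lay below all WT libraries, which was so for 16.9% of all genes tested, and in none above, which was so for 16.8%. Levels of RELA, the most widely used Rel factor, overlapped between the groups.

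TNFAIP3 was 97.2, 111 and 42.3 TPM in WT replicates 1 to 3 and 10.7, 8.82 and 13.7 TPM in 3p loss. Every 3p loss library was thus below the lowest WT library, although the WT libraries themselves spread widely. The log2 change, on the log2(TPM + 1) scale used for all mRNA values here, was -2.71 ± 0.43 (standard error; limma adjusted p = 0.00352), a fold of 0.152. Its partner gene TNIP1 was 215, 208 and 157 TPM in WT and 83.7, 86.7 and 86.4 in 3p loss. The 3p loss libraries of TNIP1 lay within a few TPM of each other, and the change was -1.16 ± 0.13 (limma adjusted p = 0.000915).

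NFKBIZ was 25.3, 42.1 and 16.5 TPM in WT and 3.96, 6.99 and 6.61 TPM in 3p loss. Its change of -2.01 ± 0.33 (limma adjusted p = 0.00408) took it from the seventh to the lowest level among the 10 genes. The 22 other tested genes within 5 Mb of NFKBIZ had a median change of 0.02, and 3q as a whole had a median of 0.06 over 324 genes.

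The cytoplasmic inhibitors moved less. NFKBIA was 218, 180 and 116 TPM in WT and 108, 97.4 and 109 TPM in 3p loss. All 3p loss libraries were below all WT libraries, but the nearest libraries differed by a few TPM, and the change of -0.65 ± 0.22 did not pass (limma adjusted p = 0.0738). It passed when WT replicate 3 was left out (-0.91, limma adjusted p = 0.0138). NFKBIE, at 10.1 ± 1.55 against 6.77 ± 0.525 TPM, did not pass either (-0.50 ± 0.16, limma adjusted p = 0.0685), but passed when fitted without trend of variance on level (0.0439).

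Among the factors, RELB had the clearest difference. Its WT libraries read 25.2, 21.4 and 25.6 TPM, and its 3p loss libraries 5.45, 7.25 and 6.04. These groups are far apart relative to their spread, and the change was -1.79 ± 0.16 (limma adjusted p = 0.00049), a fold of 0.288. NFKB1 read 26.5, 26.9 and 32.7 TPM in WT and 15.9, 17.6 and 19.3 in 3p loss (-0.67 ± 0.14, limma adjusted p = 0.0115). RELA stood at 52.4 ± 4.33 and 47.6 ± 3.05 TPM, a change of -0.13 ± 0.12 (limma adjusted p = 0.489). NFKB2 was uneven in WT, at 37.9, 20.3 and 41.1 TPM, against 20.3, 24.1 and 22.2 TPM in 3p loss. Its change of -0.50 ± 0.23 did not pass (limma adjusted p = 0.176), and without WT replicate 2 it was -0.81 and passed (limma adjusted p = 0.00707).

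BIRC3 went against the others in sign but did not pass. It was 12.2, 5.42 and 5.32 TPM in WT and 9.6, 18.9 and 10.6 TPM in 3p loss, and the groups overlapped (0.73 ± 0.34, limma adjusted p = 0.183). Its 12 tested neighbours within 5 Mb had a median change of -0.51. For the other genes such medians ran from -0.07 (TNIP1) to 0.33 (NFKB2), with 0.03 for TNFAIP3, 0.11 for RELB and -0.03 for NFKB1.

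**Figure D1:**
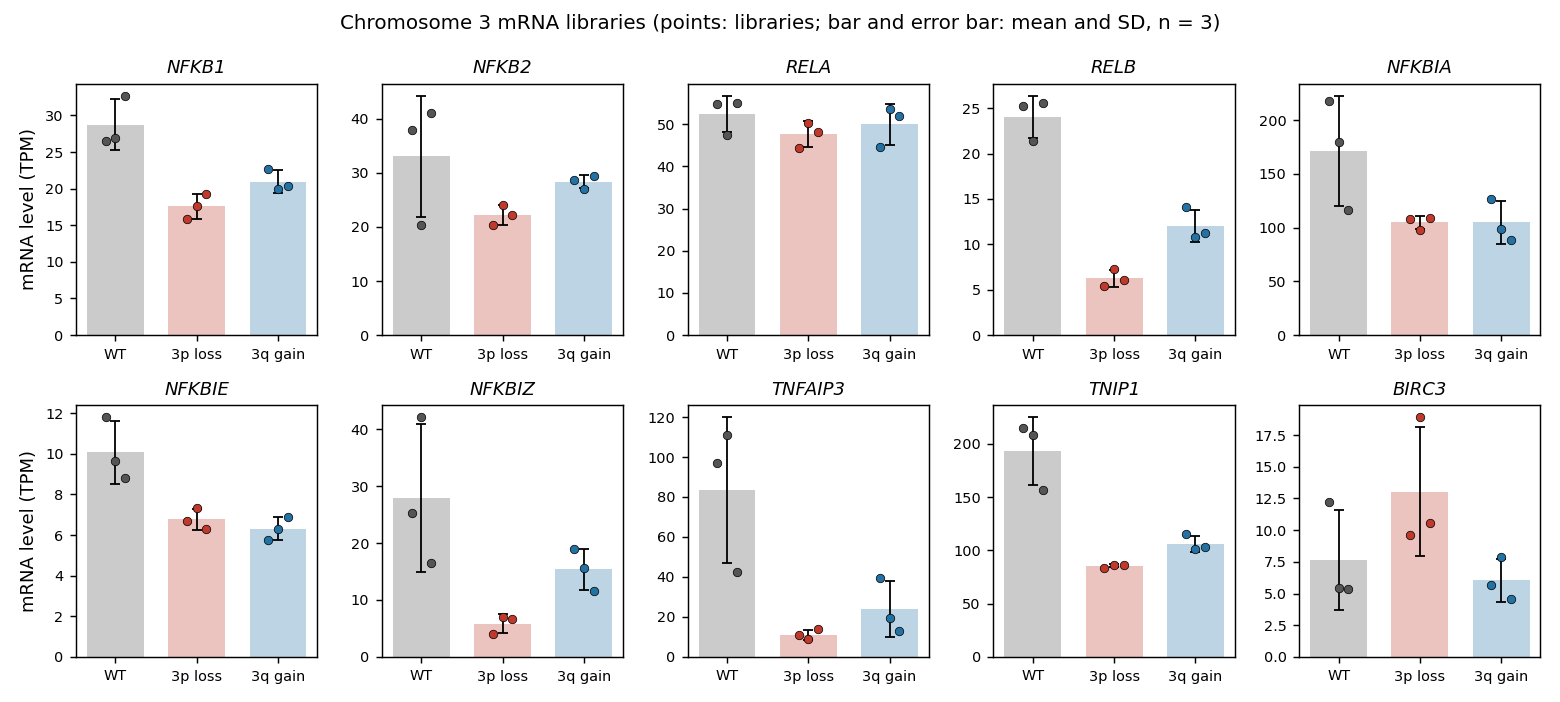
mRNA level (TPM, linear axis from 0) of each of the 10 genes in the chromosome 3 libraries, with points for libraries and bars for the mean and SD of 3. RELB reads 21.4 to 25.6 TPM in WT, 10.8 to 14.1 in 3q gain and 5.45 to 7.25 in 3p loss, while RELA overlaps in all groups.

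The 3q gain cells asked the same of an extra long arm, the arm on which NFKBIZ lies. RELB, TNIP1 and TNFAIP3 fell and no gene of the 10 rose, where 2.67% of the 11225 genes fell and 2.60% rose. These cells are compared with the same WT libraries as 3p loss, so a high or low WT library moves both comparisons together. In 5 of the 10 genes all 3q gain libraries lay below all WT libraries, against 14.5% of all genes.

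RELB was 14.1, 10.8 and 11.2 TPM in 3q gain, below every WT library (-0.95 ± 0.16, limma adjusted p = 0.0143). Its call was lost without 3q gain replicate 2 (limma adjusted p = 0.0689) or replicate 3 (0.071). TNIP1 was 115, 101 and 103 TPM, again below every WT library (-0.85 ± 0.13, limma adjusted p = 0.00992). TNIP1 was called in every alternative but without 3q gain replicate 3 (limma adjusted p = 0.0534). TNFAIP3 was 39.7, 19.5 and 13 TPM, a change of -1.78 ± 0.43 (limma adjusted p = 0.0461). That call is the least secure of these: it was lost with no filter on low values (limma adjusted p = 0.0776), with median centring (0.0568), without trend (0.0609), fitted alone (0.0865) and without 1 of 4 single libraries.

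NFKBIZ, on the gained arm, did not pass in either direction. It was 18.9, 15.6 and 11.6 TPM in 3q gain, within and below the WT range of 16.5 to 42.1 TPM (-0.75 ± 0.33, limma adjusted p = 0.205). The 22 tested neighbours within 5 Mb had a median of 0.42 in the same comparison, so the value for NFKBIZ had the opposite sign to that median, without passing the test. NFKBIA (127, 98.9 and 88.5 TPM, -0.67 ± 0.22, limma adjusted p = 0.108) and NFKBIE (-0.59 ± 0.16, limma adjusted p = 0.0707) had values close to those in 3p loss and did not pass. NFKBIA passed without WT replicate 3 (-0.93, limma adjusted p = 0.0306), and NFKBIE without trend (0.0496). NFKB1 (-0.43 ± 0.14), NFKB2 (-0.15 ± 0.23), RELA (-0.07 ± 0.12) and BIRC3 (-0.23 ± 0.34) did not pass either, with limma adjusted p-values from 0.102 to 0.774.

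Set directly against each other in a fit without pairing, 3p loss and 3q gain differed in 1 of the 10 genes. With the replicate number as a block, 0 of the 10 passed and 351 of 11225 genes were called. The values that follow are from the fit without pairing unless stated. RELB was lower in 3p loss, with a difference of -0.84 ± 0.16 (limma adjusted p = 0.0214), where 3.93% of genes were called, 3.06% lower and 0.873% higher. Replicate numbers paired these libraries, and with the replicate number as a block the RELB difference had an adjusted p = 0.0532. It was also lost without any 1 of 3p loss replicates 1 and 3 and of the 3q gain replicates (limma adjusted p from 0.0599 to 0.0898). NFKBIZ was lower in every 3p loss library than in every 3q gain library, with a difference of -1.26 ± 0.33, and did not pass (limma adjusted p = 0.0708). It passed when these groups were fitted without WT (0.0404). Its arm is gained in 3q gain alone: the 22 tested neighbours within 5 Mb had a median difference of -0.47, and 324 genes of 3q had -0.49. The part of this arm shift in the NFKBIZ value was not tested. TNFAIP3 had a value of -0.93 ± 0.43 (limma adjusted p = 0.341). NFKBIA (0.02 ± 0.22) and NFKBIE (0.09 ± 0.16) were nearly level, within 1 standard error of 0.

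Footprints asked whether the same genes were less translated in 3p loss cells. Of the 10 genes, 6 fell and 1 rose in footprints (edgeR quasi-likelihood test, adjusted p under 0.05). Over all genes, 69.3% of 11425 were called (34.2% lower, 35.1% higher), so the number called is not particular to these genes. Summing the close replicates 1 and 2 of each genotype left 6797 of 11982 genes called, and 7 of the 10. TNFAIP3, RELB, NFKBIZ, TNIP1, NFKB2 and NFKB1 fell, and NFKBIA rose. In 7 genes all 3p loss libraries were below all WT libraries (36.0% of all genes) and in 1 above (37.1%).

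TNFAIP3 footprints were 54, 57 and 55 CPM in WT and 15.2, 12.1 and 17.4 CPM in 3p loss. Unlike in mRNA, the WT libraries were close together, and the change was -1.86 ± 0.15 (edgeR adjusted p = 2.99e-07), a fold of 0.275. TNIP1 was 153, 165 and 180 CPM against 77.5, 85.4 and 102 CPM (-0.90 ± 0.12, edgeR adjusted p = 2.28e-05). RELB rested on few reads, with 95, 68 and 165 counts in WT and 22, 38 and 113 in 3p loss. In CPM this was 12.6, 12.7 and 20.4 against 4.59, 6.68 and 7.83, with no overlap (-1.21 ± 0.25, edgeR adjusted p = 0.000893).

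NFKBIZ footprints were 15, 17.6 and 21.4 CPM in WT and 8.56, 10 and 9.7 CPM in 3p loss (-0.92 ± 0.19, edgeR adjusted p = 0.000706). NFKB1 and NFKB2 were lower in every 3p loss library, with changes of -0.53 ± 0.11 and -0.62 ± 0.14 (edgeR adjusted p = 0.000802 and 0.00133). RELA footprints were 76.6 to 87.5 CPM in WT and 67.5 to 70.1 CPM in 3p loss. They did not overlap, yet the change of -0.22 ± 0.11 did not pass (edgeR adjusted p = 0.076). BIRC3 (0.21 ± 0.18) and NFKBIE (0.00 ± 0.18) did not pass (edgeR adjusted p = 0.312 and 0.988).

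NFKBIA was the only one of the 10 to rise. Its footprints were 43.7, 45.6 and 53 CPM in WT and 65.4, 69.1 and 76.1 CPM in 3p loss, from 244 to 428 counts and 313 to 1098 counts. All 3p loss libraries were above all WT libraries, and the change was 0.57 ± 0.12 (edgeR adjusted p = 0.00106), a fold of 1.48. Footprints of the 34 tested genes within 5 Mb of NFKBIA had a median change of 0.48, and their mRNA, over 31 genes, 0.08. The part of this regional shift in the NFKBIA value was not tested.

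**Figure D2:**
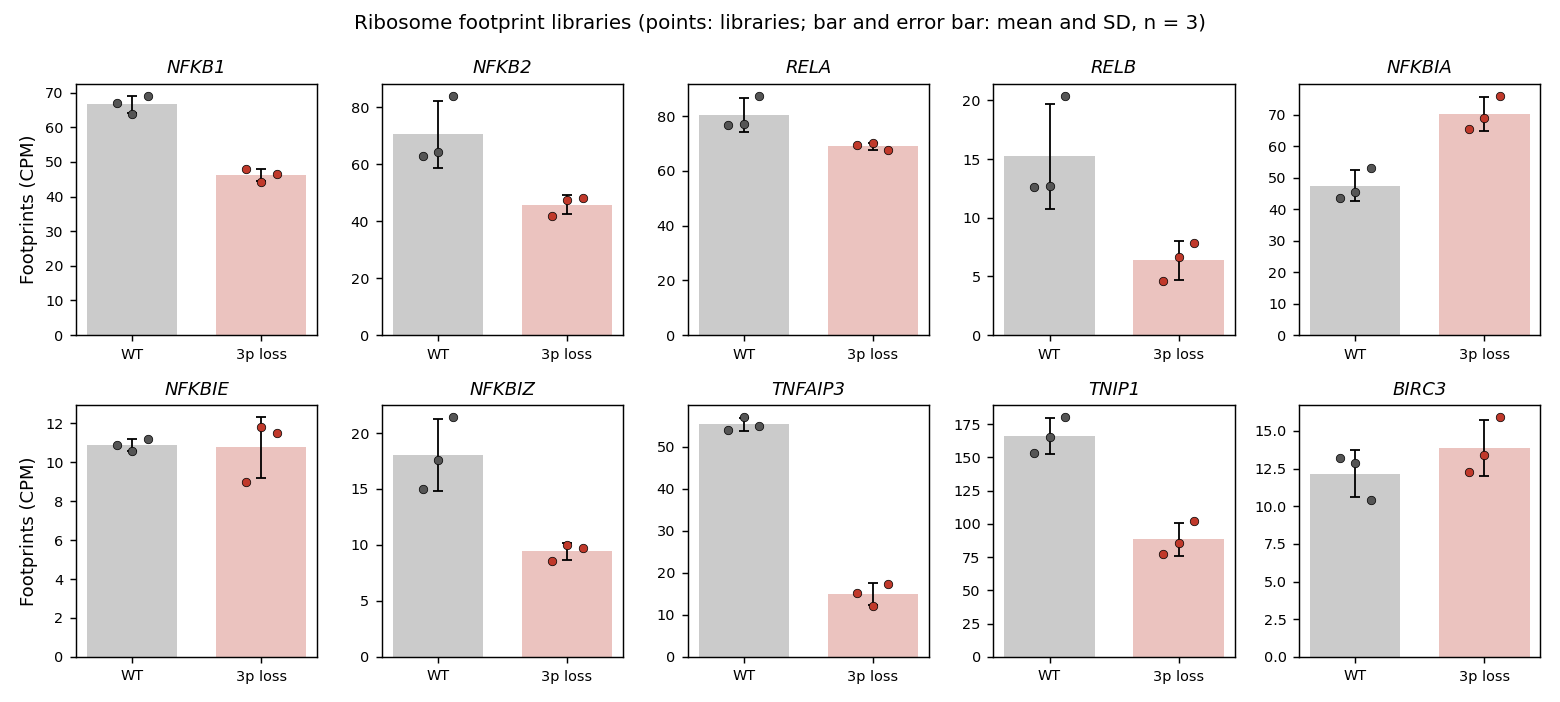
Footprint level (CPM, linear axis from 0) of each gene in the WT and 3p loss libraries, with points for libraries and bars for the mean and SD of 3. NFKBIA is the gene whose 3p loss libraries (65.4 to 76.1 CPM) all lie above WT (43.7 to 53 CPM), and TNFAIP3 shows a fold of 0.275.

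Translational efficiency, the change in footprints relative to that in mRNA, was tested as an interaction in 1 model of both assays. NFKBIA and NFKBIZ had higher efficiency in 3p loss and no gene of the 10 lower, where 18.2% of 10107 genes were higher and 17.9% lower. For NFKBIA the interaction was 1.21 ± 0.26 (limma adjusted p = 0.0033) with an mRNA value of -0.65 and a footprint change of 0.57, and it was called in every alternative tried. For NFKBIZ it was 1.16 ± 0.40 (limma adjusted p = 0.0374), with mRNA and footprints both lower and footprints less so. The NFKBIZ call was lost with median centring (limma adjusted p = 0.054) and without any 1 of 8 of the 12 single libraries.

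TNFAIP3 (0.88 ± 0.40, limma adjusted p = 0.104) and RELB (0.66 ± 0.31, limma adjusted p = 0.116) had positive values that did not pass. TNFAIP3 passed without mRNA WT replicate 3, the low one, at 1.30 (limma adjusted p = 0.00283), and RELB without footprint WT replicate 3, at 0.88 (0.0401). The remaining genes, NFKB1, NFKB2, RELA, NFKBIE, TNIP1 and BIRC3, had values from -0.56 to 0.48, with limma adjusted p-values from 0.139 to 0.816. Since mRNA and footprints came from separate preparations, and the WT cells carry different labels (Chr3 WT and 3p WT), an assay difference between the WT samples enters every interaction.

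**Figure D3:**
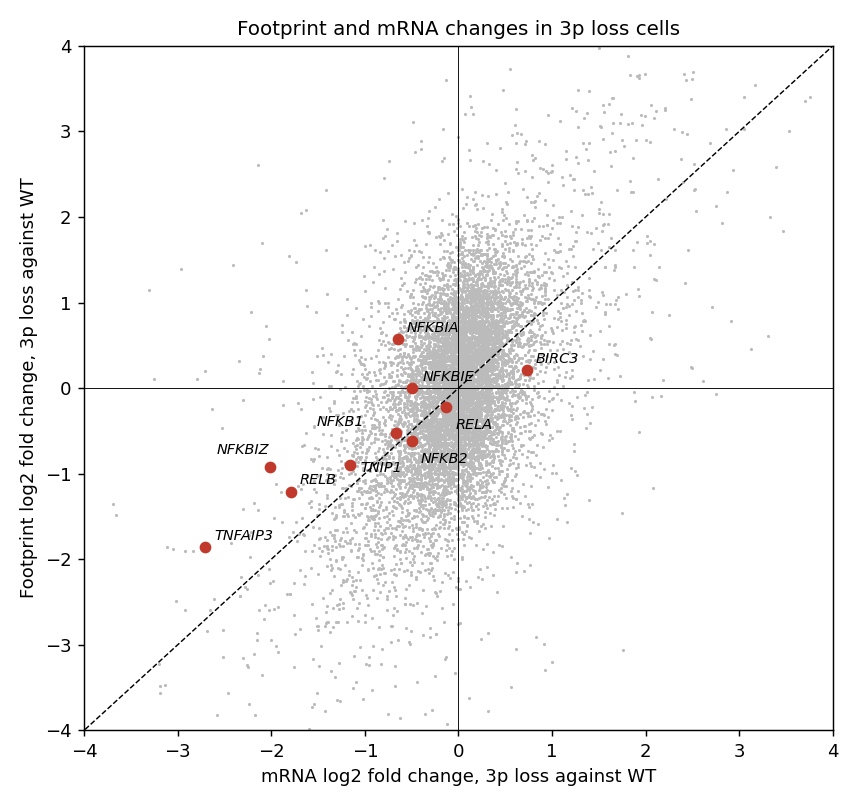
Footprint log2 change (edgeR) against mRNA log2 change (log2(TPM + 1) scale), 3p loss against WT, for 10117 genes in grey and the 10 genes in red, with 108 grey points beyond the axes. The dashed line marks equal change; NFKBIA lies at -0.65 in mRNA and 0.57 in footprints, and TNFAIP3 at -2.71 and -1.86.

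In 8p loss cells, set against their own 8p WT controls, the calls on the 10 genes went in both directions. Of the 10 genes, 6 rose and 3 fell, with changes that were small but large against a narrow spread. At this precision 33.1% of 12302 genes rose and 36.0% fell. With 69.1% of all genes called, a high number called is not particular to these genes. NFKBIZ, RELB, BIRC3, NFKB2, NFKBIE and RELA rose, and NFKB1, TNFAIP3 and TNIP1 fell. In 5 genes all 8p loss libraries were above all WT libraries (35.1% of all genes) and in 3 below (38.6%).

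NFKBIZ was 27, 29.3 and 26.8 TPM in 8p WT and 43.5, 44.9 and 47.9 TPM in 8p loss, a change of 0.69 ± 0.05 (limma adjusted p = 2.98e-05). RELB was 22.3, 17.2 and 17.6 TPM against 26.8, 34.6 and 26.1 TPM (0.59 ± 0.13, limma adjusted p = 0.00673). BIRC3 was 20 to 20.6 TPM in WT and 26.9 to 29.3 TPM in 8p loss (0.46 ± 0.04, limma adjusted p = 9.58e-05). In each of these the groups were fully separated. NFKB2 (0.42 ± 0.04) and RELA (0.28 ± 0.04) rose with limma adjusted p = 9.95e-05 and 0.000537. NFKBIE rose by 0.33 ± 0.12 with overlapping libraries (limma adjusted p = 0.0385), a call lost without any 1 of 4 single libraries and with no filter on low values (0.055). Tested neighbours within 5 Mb had median changes of 0.02 for NFKBIZ, BIRC3 and NFKB2, 0.09 for RELB and RELA, and -0.10 for NFKBIE.

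NFKB1 fell the most. It was 25.2, 24.4 and 25.1 TPM in WT and 15.2, 16.3 and 16 TPM in 8p loss (-0.62 ± 0.04, limma adjusted p = 1.96e-05). The 26 tested genes within 5 Mb of NFKB1 on chromosome 4 had a median change of -0.74. TNFAIP3 was 63.7 to 66.3 TPM in WT and 52.8 to 54.8 TPM in 8p loss (-0.26 ± 0.03, limma adjusted p = 0.000379), where 25 neighbours had a median of -0.17. TNIP1 fell from 149 ± 0.958 to 132 ± 1.87 TPM (-0.17 ± 0.03, limma adjusted p = 0.000777), where 48 neighbours had a median of -0.37. NFKBIA, at 55.2 ± 3.54 against 56.5 ± 1.31 TPM, did not pass (-0.03 ± 0.05, limma adjusted p = 0.575).

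**Figure D4:**
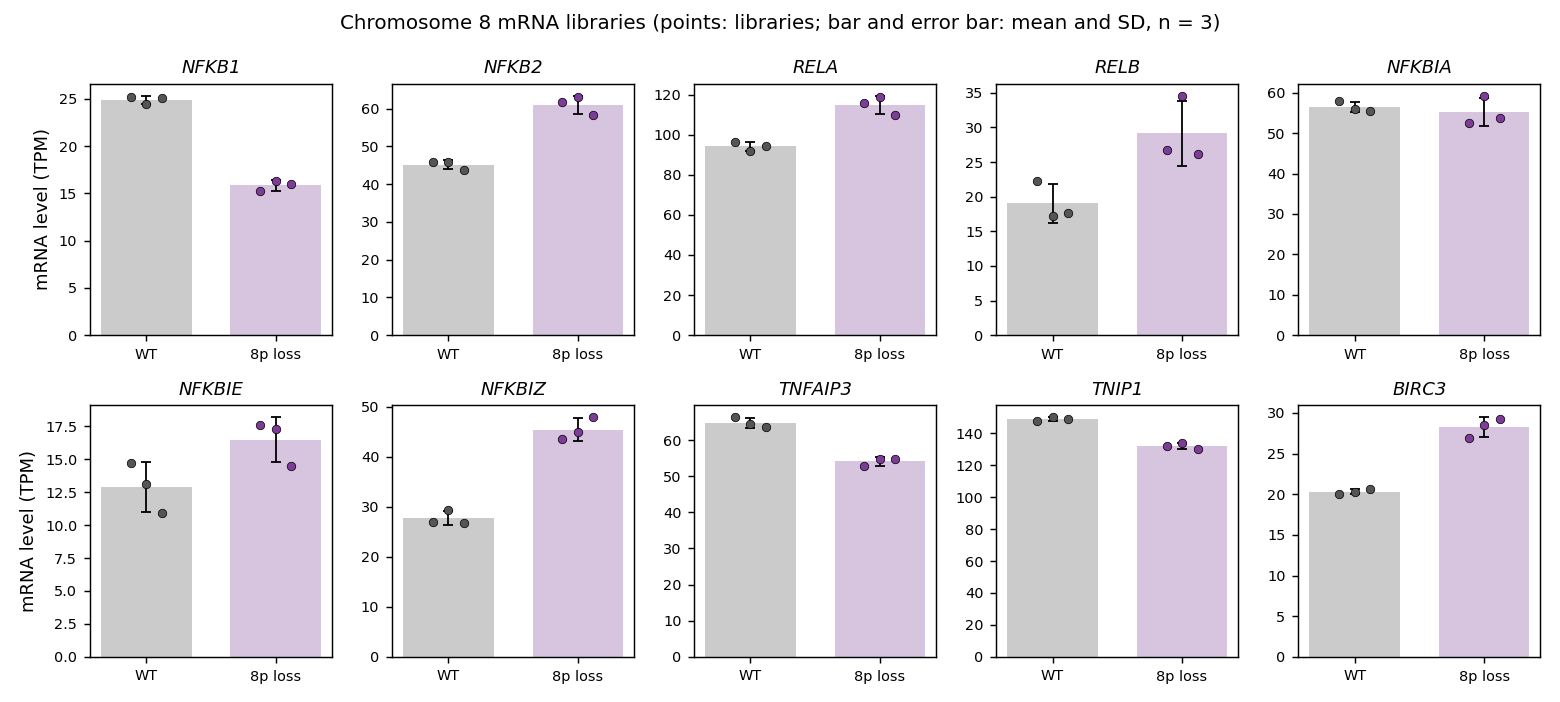
mRNA level (TPM, linear axis from 0) of each gene in the 8p WT and 8p loss libraries, with points for libraries and bars for the mean and SD of 3. NFKBIZ, RELB, BIRC3, NFKB2 and RELA lie above WT in every 8p loss library, and NFKB1, TNFAIP3 and TNIP1 below.

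**Figure D5:**
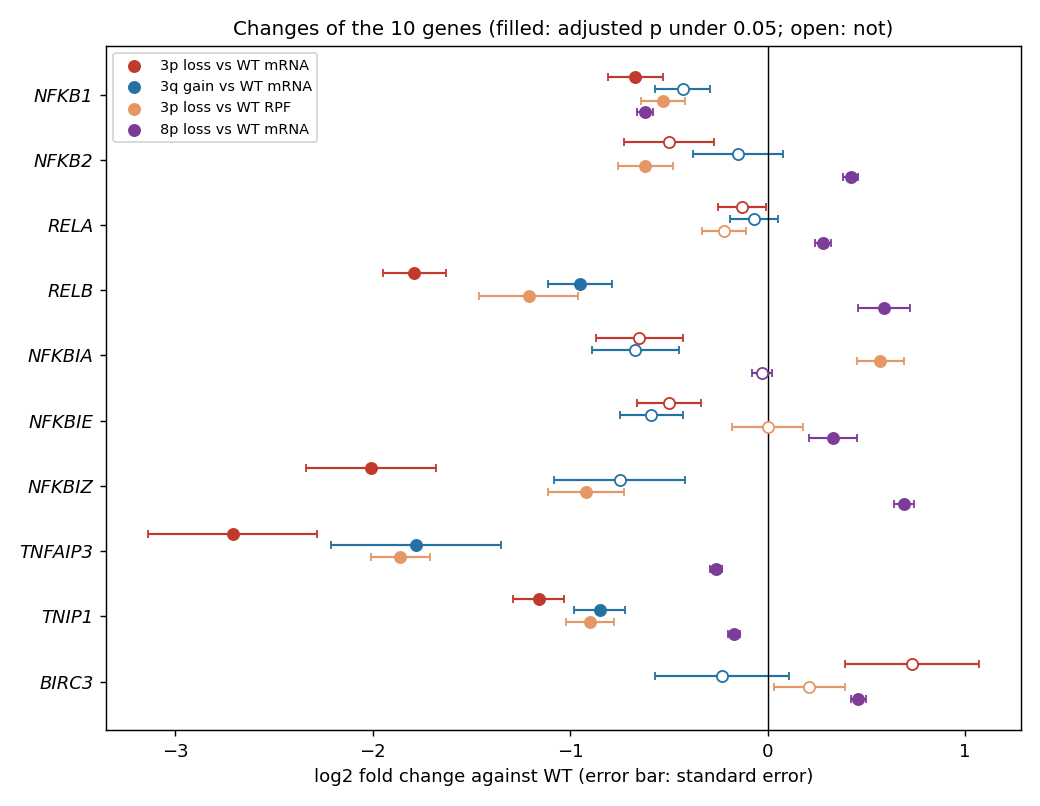
log2 change of each gene against WT in 4 comparisons, with standard errors; filled points passed an adjusted p of 0.05 and open points did not. TNFAIP3 reads -2.71 in 3p loss mRNA, -1.78 in 3q gain mRNA, -1.86 in 3p loss footprints and -0.26 in 8p loss mRNA, and NFKBIZ reads -2.01, -0.75, -0.92 and 0.69.

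The genes upstream in the pathway were read from 5 lists: other Rel and I-kappa-B family genes, IKK complex and upstream signalling genes, other negative regulators, receptors and ligands, and known NF-kappa-B target genes. In 3p loss mRNA, 5 of 29 tested IKK and upstream genes fell and none rose, where 8.80% of all genes fell and 6.17% rose, with a list median of -0.27 beside 0.01 over all genes. Of the IKK subunits, IKBKB (-0.37 ± 0.14), CHUK (0.35 ± 0.23) and IKBKG (0.34 ± 0.11) did not pass, with limma adjusted p-values from 0.0754 to 0.341. IKBKG passed with median centring (0.42, limma adjusted p = 0.0445). IRAK2 and MYD88, adaptor genes of interleukin 1 and Toll-like receptors, are among the 5 that fell. Both lie on the lost arm, whose 321 tested genes had a median change of -0.89. IRAK2 (chromosome 3, 10164919 to 10243745) stood at 5.9 ± 0.401 TPM in WT and 0.715 ± 0.212 in 3p loss (-2.01 ± 0.21, limma adjusted p = 0.000681). It was also lower in 3q gain, where 3p is unaltered (2.37 ± 0.356 TPM, -1.04 ± 0.21, limma adjusted p = 0.0248). That call in 3q gain was lost with pseudocount 0.1 (limma adjusted p = 0.0503) and without any 1 of 5 of the 6 libraries (0.0571 to 0.0901), WT replicate 1 being the exception. MYD88 (38138661 to 38143022) fell by 0.73 ± 0.15 in 3p loss mRNA (limma adjusted p = 0.0109), and its footprints did not pass (-0.22 ± 0.17, edgeR adjusted p = 0.262). CARD10 and TAB1, on chromosome 22, had changes of -1.39 ± 0.18 and -0.83 ± 0.13 (limma adjusted p = 0.00153 and 0.00298). They are also among the 5, and the changes of their neighbours on chromosome 22 were not summarised. The part of such regional shifts in the count of 5 was not tested.

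Of the ligand genes, TNF, IL1A and IL1B fell in 3p loss mRNA. TNF, which encodes the founding ligand of its family, was 17.8 ± 20.2 TPM in WT and 0.254 ± 0.262 in 3p loss (-3.38 ± 0.60, limma adjusted p = 0.00588). IL1B went from 119 ± 27.5 to 14.1 ± 5.68 TPM (-3.05 ± 0.36, limma adjusted p = 0.000991) and IL1A from 147 ± 72.8 to 10.9 ± 6.95 TPM (-3.66 ± 0.56, limma adjusted p = 0.00308). In the list as a whole, 5 of 18 tested receptors and ligands fell and 2 rose (8.80% and 6.17% of all genes), the latter being the receptor genes CD40 (0.88 ± 0.17) and TLR3 (1.01 ± 0.26). TNF, IL1A and IL1B were lower in 3q gain as well, with changes of -3.24 ± 0.60, -2.91 ± 0.56 and -2.02 ± 0.36 (limma adjusted p = 0.0183, 0.0215 and 0.0152). These calls in 3q gain depended on single libraries. IL1A and IL1B did not pass without any 1 of WT replicates 2 and 3 and 3q gain replicates 2 and 3 (limma adjusted p from 0.0641 to 0.0919 and from 0.051 to 0.066). TNF did not pass without 3q gain replicate 2 or 3 (limma adjusted p = 0.0703 and 0.0729).

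Among 21 tested target genes, 6 fell and none rose in 3p loss mRNA (8.80% and 6.17% of all genes), and the list median was -1.21 beside 0.01 over all genes. IER3, an early response gene, was 482 ± 46.8 TPM in WT and 86.2 ± 34.4 in 3p loss (-2.54 ± 0.30, limma adjusted p = 0.000994). CSF3, which encodes a growth factor for neutrophils, was 28.6 ± 14.1 TPM in WT and 0.36 ± 0.15 in 3p loss (-4.31 ± 0.38, limma adjusted p = 0.000463). IL6 (-2.10 ± 0.55) passed with limma adjusted p = 0.0328, but not with the replicate number as a block (0.0548), with no filter on low values (0.0578) or fitted alone (0.072). It also did not pass without any 1 of WT replicates 1 and 3 and 3p loss replicates 1 and 2 (changes from -2.37 to -1.56, limma adjusted p from 0.0515 to 0.107). In 3q gain 3 of 21 targets fell and none rose (2.67% and 2.60% of all genes), with a median of -0.81. CSF3 was 0.302 ± 0.194 TPM there (-4.37 ± 0.38, limma adjusted p = 0.00161), and LIF and PTGS2 passed narrowly (limma adjusted p = 0.0451 and 0.0478), calls lost for both with pseudocount 0.1 (0.0572 and 0.0811), among other settings.

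In 3p loss footprints, 6 of 12 tested target genes fell and 3 rose, where 34.2% of all genes fell and 35.1% rose. The list median was -0.56 beside 0.02 over all genes. CSF3 had 115, 92 and 145 footprint counts in the WT libraries and 0 in all 3p loss libraries, at least 139-fold lower against a floor of 3 counts over the group. C3, a complement gene, went from 82.6 ± 5.61 to 30.7 ± 2.32 CPM (-1.42 ± 0.12, edgeR adjusted p = 4.6e-07). In the other direction, SOD2, a mitochondrial antioxidant enzyme gene, rose from 70.4 ± 9.27 to 210 ± 43 CPM (1.57 ± 0.15, edgeR adjusted p = 1.87e-06) and LCN2 from 4.88 ± 1.06 to 20.6 ± 1.28 CPM (2.08 ± 0.20, edgeR adjusted p = 1.52e-06). LCN2 and SOD2 also had higher translational efficiency (3.52 ± 0.51 and 1.26 ± 0.31, limma adjusted p = 0.00042 and 0.0075). Among upstream genes, 15 of 29 fell and 7 rose in footprints, so that the share called was near the 69.3% of all genes. The largest called changes among those with at least 10 CPM were falls, in CARD10 (-2.73 ± 0.16), IRAK2 on the lost arm (-2.28 ± 0.26), IKBKE (-1.84 ± 0.19) and IRAK1 (-1.62 ± 0.17). Their edgeR adjusted p-values ran from 2.45e-08 to 6.52e-06. IKBKB, the catalytic IKK beta subunit gene, fell by 0.67 ± 0.14 (edgeR adjusted p = 0.000981). CHUK rose by 0.31 ± 0.09 (edgeR adjusted p = 0.0119, and 0.113 with replicates 1 and 2 summed). Of 12 other negative regulators tested, 4 rose and 5 fell, again near the shares over all genes (35.1% and 34.2%). The A20-binding adaptor gene TAX1BP1 rose from 151 ± 8.26 to 378 ± 14.8 CPM (1.32 ± 0.09, edgeR adjusted p = 6.75e-08) and the ribonuclease gene ZC3H12A fell from 51.1 ± 6.8 to 10.1 ± 0.956 CPM (-2.33 ± 0.15, edgeR adjusted p = 6.94e-08).

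IL1RAP, the shared subunit of interleukin 1 family receptors, lies on 3q (190514085 to 190659750). In 3p loss its mRNA fell by 0.85 ± 0.20 (limma adjusted p = 0.0214) and its translational efficiency rose by 1.41 ± 0.22 (limma adjusted p = 0.000599). In 3q gain it was 31.3 ± 6.67 against 27.6 ± 6.17 TPM, and did not pass (0.18 ± 0.20, limma adjusted p = 0.641). TNFSF10 on the same arm had 13.1 ± 3.49 against 2.85 ± 1.73 TPM in 3q gain, and did not pass (1.96 ± 0.51, limma adjusted p = 0.0575). It passed with median centring (limma adjusted p = 0.0483), with the replicate number as a block (0.0345) and fitted without 3p loss (0.047).

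In 8p loss, 11 of 24 tested target genes rose and 7 fell, where 33.1% of all genes rose and 36.0% fell. The list median was 0.31 beside -0.01 over all genes. IL6 rose from 10.1 ± 0.808 to 39 ± 1.28 TPM (1.85 ± 0.06, limma adjusted p = 9.25e-07), CSF3 from 14.4 ± 1.46 to 54 ± 5.35 TPM (1.84 ± 0.09, limma adjusted p = 4.69e-06) and ICAM1, an adhesion molecule gene, from 16.6 ± 1.39 to 44.8 ± 0.616 TPM (1.38 ± 0.06, limma adjusted p = 2.56e-06). The chemokine gene CCL20 fell from 34.4 ± 1.44 to 14.8 ± 1.16 TPM (-1.17 ± 0.06, limma adjusted p = 6.74e-06). Upstream, IL1B rose (1.10 ± 0.03, limma adjusted p = 4.89e-07), and so did IL1RL1, the interleukin 33 receptor gene, from 7.65 ± 0.261 to 168 ± 3.18 TPM (4.29 ± 0.04, limma adjusted p = 2.02e-08). IKBKB, which lies on the lost arm (chromosome 8, 42271302 to 42332460), was 13.3 ± 0.618 TPM in WT and 9.49 ± 0.362 in 8p loss (-0.44 ± 0.06, limma adjusted p = 0.000351) beside the arm's median of -0.83. IRAK2 rose from 4 ± 0.684 to 14.5 ± 0.614 TPM (1.64 ± 0.10, limma adjusted p = 1.2e-05), whereas it fell in 3p loss. The chromosome 8 and chromosome 3 tables were scaled and sequenced separately, and the difference between these changes was not tested.

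Markers of other cell types moved with some groups. The 5 endothelial markers summed to 3.42 to 14.4 TPM in 3p loss mRNA and 0.369 to 0.737 in WT, nearly all of it from KDR, and 4 of the 5 were under 1 TPM in every 3p loss library. The 8 fibroblast markers summed to 8.06 to 124 TPM in 3p loss and 5.27 to 8.72 in WT, with DCN at 75.8, 2.96 and 114 TPM in 3p loss. The 9 immune markers summed to 11.9 to 36.2 TPM in 3p loss and 14.1 to 18.1 in WT, with 6 under 1 TPM in every library of each group. The epithelial sum was 16700 to 29600 TPM in 3p loss and 10700 to 17900 in WT. In footprints of 3p loss the fibroblast sum was 63 to 72.8 CPM against 23.3 to 25.7 in WT, and the endothelial sum 10.1 to 13.2 against 1.12 to 1.68. DCN alone was 39.6 to 49.3 CPM in 3p loss and 11.6 to 14.4 in WT. COL1A1 and LUM footprints were also higher in 3p loss, and THY1 was lower (0 to 0.139 against 0.934 to 1.46 CPM). In each group 5 of the 8 fibroblast markers were under 1 CPM in every library. In 8p loss the epithelial sum was lower, at 4430 to 4590 against 12500 to 13000 TPM. The part of these in the pathway results was not tested.

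By the size of change from the WT mean over the 9 chromosome 3 mRNA libraries, the genes most like NFKBIA among 9514 were ACTB, MFSD3 and RBX1, with root mean square differences of 0.203, 0.208 and 0.22 on the log2 scale. These genes had mean changes of -0.58, -0.82 and -0.51 in 3p loss and of -0.45, -0.57 and -0.70 in 3q gain, beside -0.65 and -0.67 for NFKBIA.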

How the data were processed

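The authors deposited footprint counts per gene, whole numbers with no normalization, and mRNA tables with values scaled for length and library size. The mRNA values as deposited were taken as TPM from their column sums (861114 to 916783 over protein-coding genes). The files name no unit, and the sums do not tell TPM from FPKM. Per the submitters' processing notes the build was GRCh38, while aligner, read counter and gene models are not given in the sources used here. Of 20915 names in the footprint table, 1061 were transcripts and were left out (0.432 to 0.568% of counts). Chromosome 8 rows that repeated a name (30) were added to its first row.

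Changes in mRNA were fitted in limma 3.58.1 (R 4.3.3, with a trend of variance on level) on log2(TPM + 1) where the mean was 1 TPM or more, with the 9 chromosome 3 libraries together and the 6 chromosome 8 libraries alone. A fold on this scale understates changes of low genes. Footprint counts were tested in edgeR 4.0.16 (quasi-likelihood, TMM, filterByExpr), and log2(CPM + 1) with log2(TPM + 1) entered a limma interaction of assay and genotype for translational efficiency. Benjamini-Hochberg adjusted p under 0.05 over all genes tested was called. The tests were tried on simulated data. Alternatives included DESeq2 1.42.0 and the others given at the end.

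All 10 genes are named in every comparison. From each pathway list the text draws on up to 4 called genes with the largest change and at least 5 TPM or 10 CPM, list genes on the altered arm, and IKBKB, CHUK, IKBKG and REL. TLR3 and CCL20 were named after their values were seen, as were the medians over neighbours within 5 Mb. CD40 also lay outside the rule above, as did IL1RAP except in the comparison in which its arm was gained. They are likewise to be read as picked on their values. No alternatives are given for these values of CD40 and IL1RAP. The genes and lists were chosen with earlier results of these data known.

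Same-numbered libraries of 3p loss and 3q gain mRNA deviated together (correlations of 0.12, 0.16 and 0.14), so their numbers were taken as pairs. The main fit did not model these pairs, and the fit with the replicate number as a block did. In the other comparisons they were not. Promoters are from RefSeq (GRCh38.p14). No column of sample values was left unused (0).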

Additional observations from a re-analysis of the deposited data

Results flagged for a closer look

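In the direct test of 3p loss against 3q gain without pairing, RELB differed between the altered lines, with a difference of -0.84 ± 0.16 (limma adjusted p = 0.0214, lower in 3 of 3 3p loss libraries than in any 3q gain library). With the replicate number as a block, which models the pairs, it did not pass (limma adjusted p = 0.0532).

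NFKBIA changed differently in footprints and in mRNA of 3p loss cells, an interaction of 1.21 ± 0.26 (limma adjusted p = 0.0033). The same interaction had a median of 0.25 over 30 tested neighbours within 5 Mb, whose footprint change alone had a median of 0.48 over 34.

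NFKBIZ also differed between the assays, by 1.16 ± 0.40 (limma adjusted p = 0.0374). This call was lost in most of the fits that left out a library.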

How the results depend on the processing

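Of the calls on the 10 genes, those in 3p loss mRNA, 3p loss footprints and 8p loss other than NFKBIE held under every alternative. In 3p loss against 3q gain the number of the 10 called was 0 with the replicate block and 2 with those groups fitted alone. For translational efficiency it was 1 with median centring. Leaving out 1 library gave 0 to 4 called in 3q gain (0 without 3q gain replicate 3), 0 to 1 in 3p loss against 3q gain and 1 to 3 for translational efficiency. Over all genes those fits called 999 to 1444 in 3p loss mRNA (1681 with all libraries), 110 to 631 in 3q gain (592) and 187 to 463 in 3p loss against 3q gain (441). The replicate block gave 1509, 451, 7980, 3337 and 8456 genes in 3p loss mRNA, 3q gain, footprints, translational efficiency and 8p loss, and where numbers did not pair libraries it ended the TNFAIP3 call in 3q gain (0.0513) and no other on the 10 genes.

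Signs turned only for values that had not passed. With other settings these were REL in 3p loss mRNA (0.08, median centring), IKBKB and IKBKG in 3p loss against 3q gain (0.02 and 0.01, median centring), NFKBIE footprints (0.01 with a mean of at least 10 CPM, and with replicates 1 and 2 summed) and IRAK2 efficiency (0.53, pseudocount 0.1). Leaving out a library gave ranges that crossed 0 for BIRC3 (-0.41 to 0.12), NFKB2 (-0.46 to 0.03), RELA (-0.14 to 0.01) and CHUK (-0.06 to 0.47) in 3q gain, REL in 3p loss (-0.09 to 0.11), NFKBIA (-0.09 to 0.16) and IKBKB (-0.13 to 0.01) in 3p loss against 3q gain, NFKBIE footprints (-0.06 to 0.10), NFKB2 (-0.29 to 0.21), CHUK (-0.26 to 0.27) and IRAK2 (-0.11 to 0.23) efficiency, and reached 0 for NFKBIA in 8p loss (-0.08 to 0.00). The cause was not tested. Median centring shifted all changes by at most 0.09. The unknown depth of the TPM values limits statements on low genes.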
